A study of Mus musculus with 3 samples.

Results

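The genes described here are 4 subunits of the transcription factor NF-kB (Nfkb1, Nfkb2, Rel and Relb) and 5 genes whose products restrain or modulate it (Nfkbia, Nfkbie, Nfkbiz, Tnfaip3 and Tnip1). They were chosen by name, 9 of 31053 genes in the count matrices, and all 9 passed the filter on low counts in each comparison. Their levels were read in 9738 cells from 3 mouse mammary tumours, from macrophages at an inflammatory end to macrophages at a quiescent end. All 9 were higher at the inflammatory end, by 3.98-fold for Tnip1 to 11.2-fold for Nfkbia as a ratio of mean levels.

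NF-kB is a family of dimeric transcription factors that inhibitors of the IkB family hold in the cytoplasm. Signals from Toll-like, interleukin-1 and tumour necrosis factor receptors activate a kinase complex that marks these inhibitors for degradation, and the freed dimers enter the nucleus. Several of the genes that the dimers induce encode their own inhibitors and subunits, so the pathway is a textbook case of negative feedback. In macrophages it is known for driving cytokine and chemokine genes.

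The cells came from 1 group of 3 mice of strain FVB/N-Tg(MMTVPyVT)634Mul/J, in which the MMTV promoter drives polyoma middle T antigen in mammary epithelium, and the labels name no treatment. Each mouse gave 1 mammary adenocarcinoma of 750 mm3, digested for 60 min at 37 °C with collagenase and DNase. CD45+ Ly6G- CD11b+ F4/80+ cells were sorted and sequenced by a droplet method that counts the 3′ ends of transcripts. All comparisons here are between cell states within these mice, so an animal and its library cannot be told apart.

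The 3 libraries held 1074, 2470 and 7429 barcodes, with 12454677, 41097369 and 86178419 UMIs (unique molecular identifiers, each counting 1 captured transcript). Cells were kept with at least 500 detected genes and at most 15% mitochondrial UMIs, which together with a doublet caller left 661, 2099 and 6978 cells in mice 1, 2 and 3. Mouse 1 stood apart, with 36.03% of its barcodes above the mitochondrial limit, against 12.1% in mouse 2 and 4.13% in mouse 3. Mice 2 and 3 shared 7 barcodes, and mouse 1 shared 0 with either. Most markers of the sorted lineage were common, as Csf1r had a UMI in 94.6% to 96.3%, Adgre1 (F4/80) in 84.7% to 87.9% and Itgam (CD11b) in 65.2% to 70.5% of the cells of each mouse. Mertk was the rarest of the 9 markers looked at, in 31.4% to 41.8%.

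The cells fell into 16 clusters, formed without the 9 genes. Of these, 14 were counted as macrophages because they did not meet the marker rule for another lineage. The inflammatory-like cluster of 1524 cells was named by 7 of 12 markers such as Il1b, Tnf and Nlrp3, although none of the 12 was among its 10 leading genes, which began with Cd207, Il1r2 and Areg. It held 16.7% ± 1.501 of the cells of a mouse (SD, n = 3). The quiescent-like cluster of 682 cells was named by 4 of 11 markers, with Txnip and Sesn1 among its 10 leading genes, and held 9.14% ± 3.14. Several inflammatory markers are themselves known NF-kB targets, so the states were defined by genes of the same programme, and p-values do not measure a difference independent of how the states were formed.

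Promoter sequence is shown as a description. The 9 genes were chosen as subunits and inhibitors of NF-kB, and the dimers are known to induce several such genes. Consensus matches were therefore likely from the choice itself. Sequences are from RefSeq on GRCm38.p6, in a window from 250 bases before to 50 after the transcription start, and 6 of the 9 genes were matched. The promoters of Nfkb1, Relb and Nfkbiz were not analysed here. The NF-kB consensus, searched on both strands, was present in the windows of 6 of 6 genes and in 8 of their 9 annotated windows, against 8.46% of all 32851 promoter windows. A match is a stretch of letters, not a measured binding site. The 250 bases before the start are printed for an IkB gene, a deubiquitinase gene and a subunit gene, 5′ to 3′ along the gene, with consensus matches in capitals. They lie at chr12:55492648-55492897 on the minus strand (Nfkbia), at chr10:19015411-19015660 on the minus strand (Tnfaip3, the first of its annotated starts) and at chr19:46304487-46304736 on the plus strand (Nfkb2, likewise). For Tnfaip3 and Nfkb2 these starts lie inside the gene positions given further below. By those positions the whole Nfkb2 stretch and nearly all of the Tnfaip3 stretch fall within the gene.
Nfkbia: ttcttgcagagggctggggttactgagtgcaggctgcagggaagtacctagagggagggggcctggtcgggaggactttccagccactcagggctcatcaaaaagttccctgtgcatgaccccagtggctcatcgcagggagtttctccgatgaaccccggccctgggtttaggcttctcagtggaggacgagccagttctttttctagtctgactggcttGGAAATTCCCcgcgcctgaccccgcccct
Tnfaip3: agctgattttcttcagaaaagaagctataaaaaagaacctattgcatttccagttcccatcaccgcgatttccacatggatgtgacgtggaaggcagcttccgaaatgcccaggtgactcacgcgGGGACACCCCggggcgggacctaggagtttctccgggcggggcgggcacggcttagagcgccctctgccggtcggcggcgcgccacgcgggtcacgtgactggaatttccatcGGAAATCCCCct
Nfkb2: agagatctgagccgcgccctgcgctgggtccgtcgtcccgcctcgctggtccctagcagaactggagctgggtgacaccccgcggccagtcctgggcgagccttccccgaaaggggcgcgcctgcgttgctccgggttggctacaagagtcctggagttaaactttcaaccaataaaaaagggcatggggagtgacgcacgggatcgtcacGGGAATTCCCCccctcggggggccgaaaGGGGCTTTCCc
The Nfkbia match began 29 bases before the start, and the Tnfaip3 matches 125 and 12 bases before it. The Nfkb2 matches began 39, 38 and 11 bases before the start, and the first pair overlap. For the other 3 genes a match is shown with 10 bases on each side.
Rel: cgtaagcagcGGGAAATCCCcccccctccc
Nfkbie: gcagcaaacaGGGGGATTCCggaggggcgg
Tnip1: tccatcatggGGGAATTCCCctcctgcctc
These began 92 bases before the start in Rel, on chromosome 11, 106 before it in Nfkbie, on chromosome 17, and 57 before it in Tnip1, on chromosome 11. Rel held 1 more match and Tnip1 a further 2, each overlapping the one shown.

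The main question was how the 9 genes differ from the inflammatory to the quiescent end. Counts were summed per mouse and cluster and compared with edgeR's quasi-likelihood test, with the mouse as a block. All 9 genes were higher in inflammatory-like macrophages than in quiescent-like macrophages (adjusted p from 7.59e-22 to 1.19e-10). Among all 8661 genes tested, which leave out those used to form the clusters, 18% were called higher and 23.9% lower, so calls between these ends were common. The share of all tested genes whose values in the mice do not overlap between the ends is not given here. The median log2 difference was 3.18 over the 9 genes and −0.09 over all genes tested. Fitted differences lay 0.32 above the plain log2 ratios of CPM (UMIs of a gene per 1000000 UMIs of the sum), as a median over 6021 genes with edgeR's scaling between libraries.

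**Figure D1:**
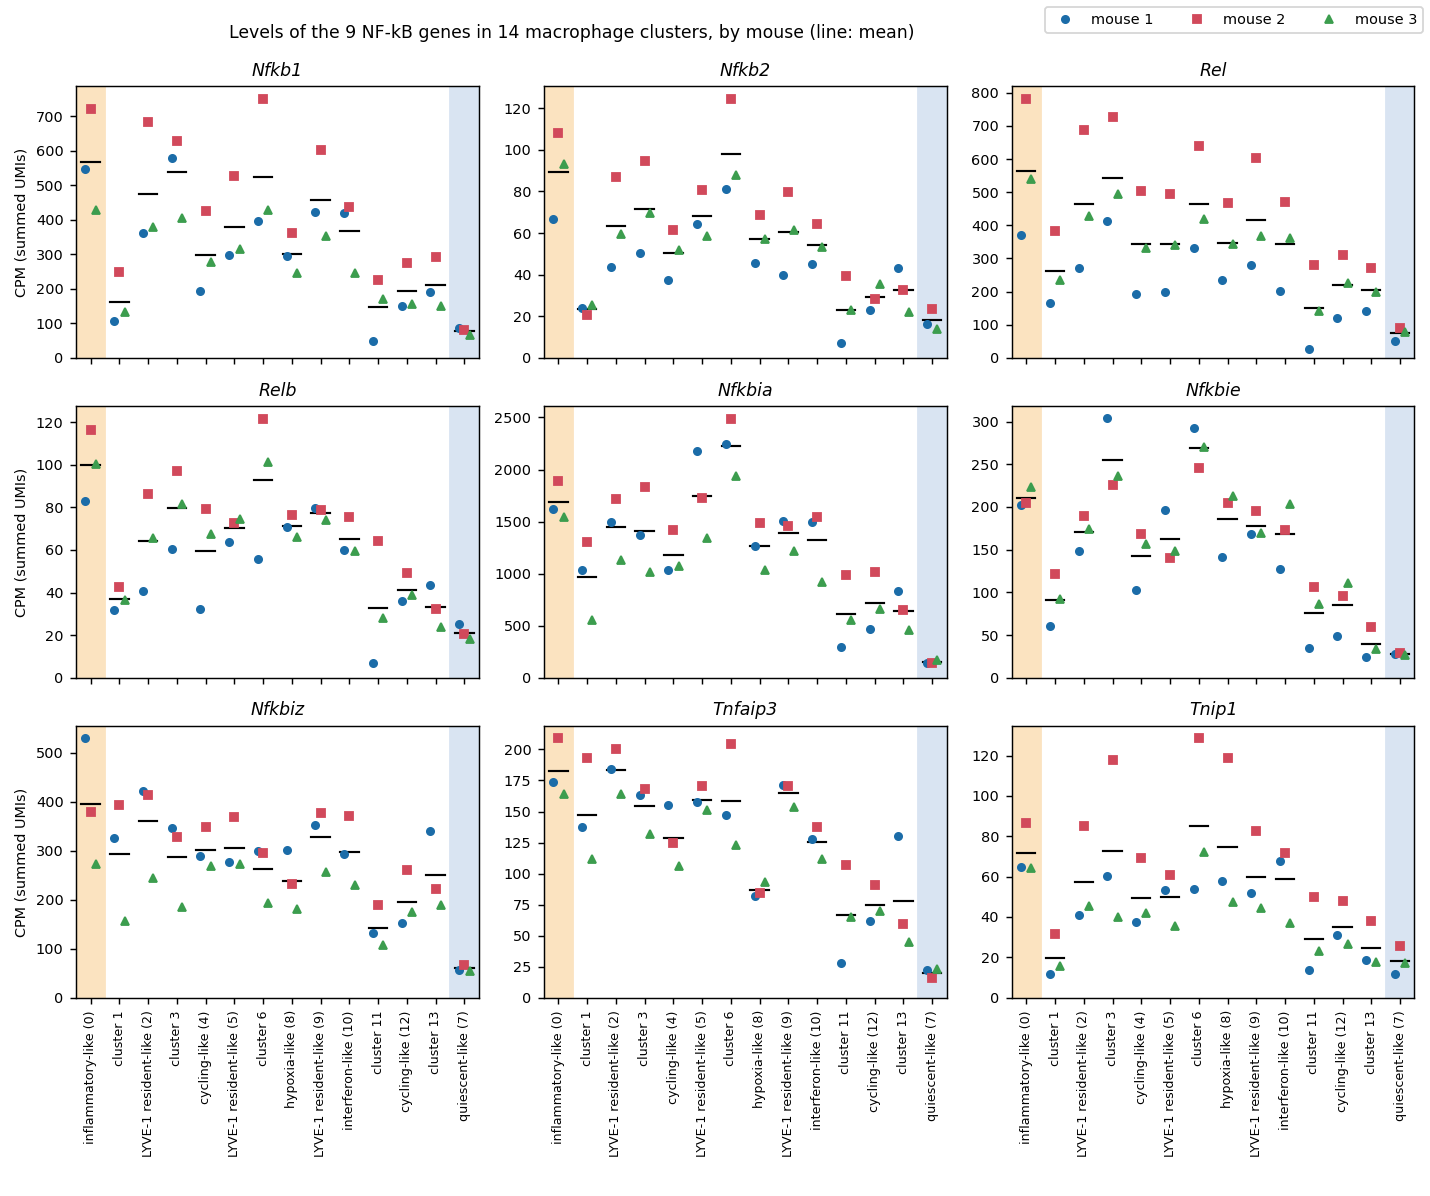
Level in CPM (linear axes from 0) of each of the 9 genes in the 14 macrophage clusters, with 1 point per mouse and a bar at the mean. The inflammatory-like cluster is on the left and the quiescent-like on the right, with the others between them in order of cluster number. In each panel the 3 inflammatory-like points lie above the 3 quiescent-like points, for example at 1625, 1891 and 1539.9 against 141, 139 and 173 for Nfkbia. The share of all tested genes that lie apart in this way is not given.

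The subunit genes come first. Nfkb1 (chr3:135584655-135691547, minus strand) encodes p105, the precursor of the p50 subunit. Its level in mice 1, 2 and 3 was 548, 722 and 429.6 CPM in inflammatory-like macrophages, and 86.7, 81.6 and 66.5 CPM in quiescent-like macrophages. Mouse 2 had the highest inflammatory-like value, and the states did not overlap. The log2 difference was 3.18 ± 0.20 (SE; edgeR adjusted p = 2.57e-13).

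Rel (chr11:23736847-23770970, minus strand) encodes c-Rel, a subunit known for inducing Il12b in macrophages. It reached 370.0, 781 and 539.8 CPM in inflammatory-like macrophages, against 52.0, 90.5 and 77.8 CPM in quiescent-like macrophages. Mouse 2 was highest and mouse 1 lowest in both states, with no overlap between states. The log2 difference was 3.24 ± 0.15 (SE; edgeR adjusted p = 7.59e-22).

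Nfkb2 and Relb encode p100, the precursor of p52, and RelB, the partners of the non-canonical branch. Nfkb2 (chr19:46304320-46312385, plus strand) had 66.6, 108 and 93.3 CPM in inflammatory-like macrophages and 16.4, 23.7 and 13.97 CPM in quiescent-like macrophages, a log2 difference of 2.68 ± 0.17 (SE; edgeR adjusted p = 8.91e-19). Relb (chr7:19606217-19629438, minus strand) had 83.0, 116 and 100.5 CPM in inflammatory-like macrophages and 25.0, 20.6 and 17.96 CPM in quiescent-like macrophages, a log2 difference of 2.66 ± 0.19 (SE; edgeR adjusted p = 3.69e-15). Both pairs of states were apart in every mouse. The remaining subunit gene, Rela, is not among the 9, and it differed by 0.88 ± 0.15 on the log2 scale (64.5 ± 5.28 CPM in inflammatory-like and 45.0 ± 7.22 CPM in quiescent-like macrophages, SD, n = 3; edgeR adjusted p = 3.80e-06).

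The IkB genes followed. Nfkbia (chr12:55489410-55492647, minus strand) encodes IkBα, the classic inhibitor that the dimers themselves induce. It had 1625, 1891 and 1539.9 CPM in inflammatory-like macrophages, against 141, 139 and 173 CPM in quiescent-like macrophages. The 3 mice lay close together at each end, and the fitted log2 difference, 3.76 ± 0.29, was the largest of the 9 (SE; edgeR adjusted p = 1.19e-10).

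Nfkbie (chr17:45555703-45563169, plus strand) encodes IkBε, another cytoplasmic inhibitor. Its level was 202, 205 and 224 CPM in inflammatory-like macrophages and 27.9, 29.1 and 26.9 CPM in quiescent-like macrophages, a log2 difference of 3.25 ± 0.24 (SE; edgeR adjusted p = 9.66e-12). The spread between mice was small at both ends and the ends did not overlap.

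Nfkbiz (chr16:55811375-55838899, minus strand) encodes IkBζ, a nuclear member of the family that is known as a coactivator of secondary response genes. It had 530.1, 379 and 273 CPM in inflammatory-like macrophages, and 56.8, 66.8 and 55.2 CPM in quiescent-like macrophages. Here mouse 1, not mouse 2, was highest at the inflammatory end, and the ends stayed apart. The log2 difference was 2.97 ± 0.22 (SE; edgeR adjusted p = 1.29e-11).

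Tnfaip3 encodes A20, a ubiquitin-editing enzyme that shuts off signalling above the kinase complex, and Tnip1 encodes ABIN1, a ubiquitin-binding partner of A20. Tnfaip3 (chr10:19000910-19015657, minus strand) had 174, 209 and 164 CPM in inflammatory-like macrophages and 22.2, 15.5 and 22.9 CPM in quiescent-like macrophages, a log2 difference of 3.49 ± 0.21 (SE; edgeR adjusted p = 2.04e-14). Tnip1 (chr11:54910785-54962917, minus strand) had 64.9, 86.4 and 64.2 CPM in inflammatory-like macrophages and 11.6, 25.6 and 17.0 CPM in quiescent-like macrophages, a log2 difference of 2.28 ± 0.18 (SE; edgeR adjusted p = 1.62e-14). Neither gene overlapped between the ends, and Tnip1 had the smallest difference of the 9. Counts of 3′ ends are not scaled to transcript length, so levels are not ranked between genes.

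Depth and mitochondrial share lay close together at the 2 ends, with fewer detected genes at the inflammatory end. In mice 1, 2 and 3 the median cell held 14924, 11613 and 8175 UMIs in inflammatory-like macrophages and 14741, 11061 and 7457 UMIs in quiescent-like macrophages. It had 2870, 2621 and 2176 detected genes in inflammatory-like macrophages and 3324.5, 2955 and 2251 in quiescent-like macrophages. The median mitochondrial share was 5.61%, 4.71% and 4.98% in inflammatory-like macrophages and 5.46%, 5.20% and 4.86% in quiescent-like macrophages. The summed level of the lineage markers did not overlap between the ends and was lower at the inflammatory end, with a sum of 12636 to 15183 CPM in inflammatory-like and 16907 to 19536 CPM in quiescent-like macrophages. All 9 lineage markers were detected at both ends. Itgam had a UMI in 48.8% of inflammatory-like and 61.4% of quiescent-like cells, and Mertk in 11.5% and 30.8%. Only Cd68 was found in more cells at the inflammatory end (95.5% and 93.5%).

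Markers of other cell types were present at both ends at low sums. The 9 tumour epithelium markers summed to 22.8 to 54.5 CPM in inflammatory-like macrophages (9 of 9 detected) and to 52.0 to 112 CPM in quiescent-like macrophages (8 of 9 detected, Cldn4 at 0). The 7 neutrophil markers summed to 21.6 to 23.2 CPM in inflammatory-like and 40.4 to 42.4 CPM in quiescent-like macrophages, with 4 detected and S100a9, Retnlg and Ly6g at 0 in both. B cell markers summed to 4.61 to 8.18 CPM in inflammatory-like and 11.3 to 21.2 CPM in quiescent-like macrophages, with Pax5 and Igkc at 0 in both. The neutrophil and B cell sums did not overlap between the ends and were lower at the inflammatory end. The ranges of the tumour epithelium sums overlapped, and within each mouse the sum was lower at the inflammatory end. The 8 dendritic cell markers ran the other way, at 62.2 to 106 CPM in inflammatory-like (Clec9a at 0) and 40.5 to 43.5 CPM in quiescent-like macrophages (Clec9a, Zbtb46, Xcr1 and Fscn1 at 0). The 10 monocyte markers summed to 157 to 219.7 CPM in inflammatory-like and 192 to 498 CPM in quiescent-like macrophages, which overlap. T cell markers reached at most 0.450 CPM in inflammatory-like and 1.93 CPM in quiescent-like macrophages, with Cd3e, Cd3g and Trac at 0 in both. The part of these transcripts in the differences was not tested.

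Cell by cell, with each cell thinned to 2000 UMIs, an inflammatory-like macrophage showed UMIs of 3.71 of the 9 genes on average (1448 cells) and a quiescent-like macrophage of 0.846 (654 cells). The averages in mice 1, 2 and 3 were 3.82, 4.20 and 3.52 in inflammatory-like and 0.960, 0.830 and 0.831 in quiescent-like macrophages. No UMI of any of the 9 was seen in 0.760% of inflammatory-like cells and in 44.2% of quiescent-like cells. At least 5 of the genes were seen together in 26.7% of inflammatory-like cells and in 0.153% of quiescent-like cells.

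Free RNA in droplets can give a cell UMIs of genes that it does not express, and none of the cell types found here is known to lack these genes. The nearest comparison was the tumour epithelium-like cluster, of which 46 cells had 2000 UMIs (median depth of all 62 cells 5956 UMIs, against 8917 in inflammatory-like and 9040 in quiescent-like cells). Nfkbia had a UMI in 90.3% of thinned inflammatory-like cells, 21.3% of quiescent-like cells and 47.8% of epithelium-like cells (95% exact interval of the last 32.9% to 63.1%, counting error only). Nfkb1 had one in 60.9%, 15.3% and 23.9% of the same groups (12.6% to 38.8%). The quiescent-like share was at or below the epithelium-like share for 7 of the 9 genes. For Nfkbiz and Tnip1 it was higher but inside the epithelium-like interval. The epithelium-like cells may express these genes themselves, so the low quiescent-like shares are read neither as expression nor as free RNA. The exact interval of the inflammatory-like share lay wholly above the epithelium-like interval for 7 of 9 genes, the exceptions being Relb and Tnip1. For Tnip1 the inflammatory-like share itself lay above the epithelium-like interval, but the intervals overlapped. As sequenced, Nfkb1 had a UMI in 94.2% of inflammatory-like and 46.2% of quiescent-like cells.

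All 14 macrophage clusters were then placed in order for each gene. The quiescent-like cluster had the lowest mean for all 9. The inflammatory-like cluster had the highest mean for Nfkb1, Rel, Relb and Nfkbiz. Cluster 6, led by Plac8 and Chil3, was highest for Nfkb2, Nfkbia, Nfkbie and Tnip1, and a LYVE-1 resident-like cluster (cluster 2) was highest for Tnfaip3. The ranges over mice overlapped in 112 of 117 pairs of neighbouring clusters. Since each cluster was measured in the same mice, neighbours were also compared within mice, and the order was the same in all 3 mice for 24 of those 112 pairs. The 5 pairs with no overlap were those between cluster 11 and the quiescent-like cluster below it for Nfkbia, Nfkbiz and Tnfaip3, between cluster 3 and the inflammatory-like cluster below it for Nfkbie, and between the interferon-like and the hypoxia-like cluster below it for Tnfaip3.

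The mice differed along with the clusters. Mouse 2 had the highest level of Rel and of Tnip1 in 14 of 14 clusters and of Nfkb1 in 13 of 14, but of Nfkbie in 7 and of Nfkbiz in 8. Mouse 1 had the highest Nfkbiz level in the other 6. An animal effect and a library effect cannot be told apart.

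Each of the 13 clusters with at least 10 cells per mouse was set against the mean of the other 12. This gave 52 calls of a gene as higher and 29 as lower among 117 pairs of gene and cluster (edgeR, adjusted p below 0.05). The mean of the others includes the quiescent-like cluster, and without it the calls were 37 higher and 39 lower. Of the 81 calls, 35 held in all 9 alternative settings run on them, among them all 9 of the inflammatory-like cluster and all 9 of the quiescent-like cluster. Without the mouse as a block the calls were 28 higher and 14 lower, and they were 34 higher and 18 lower without mouse 3.

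**Figure D2:**
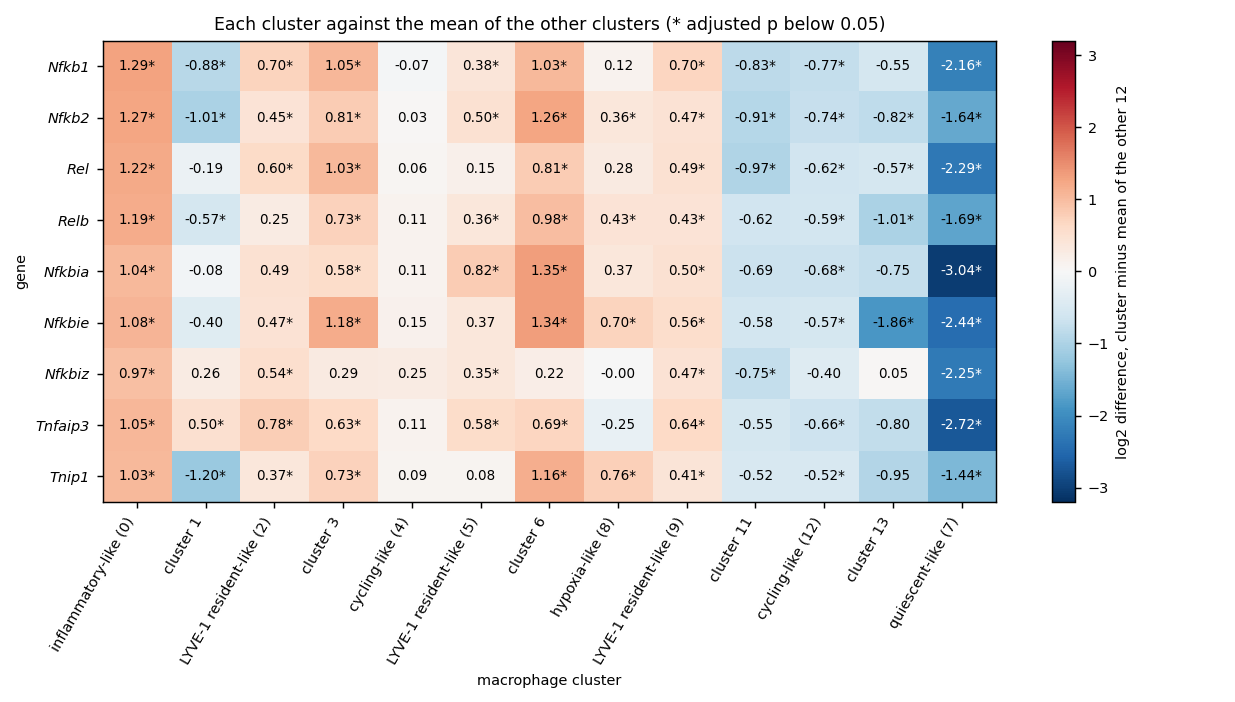
Log2 difference of each of the 9 genes (rows) in each of the 13 fitted clusters (columns) from the mean of the other clusters, by colour, with calls at an adjusted p below 0.05 marked. The quiescent-like column is the lowest throughout, from −3.04 to −1.44, and clusters 1, 11, 12 and 13 hold the remaining calls of lower genes.

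All 9 genes were higher in the inflammatory-like cluster, by 0.97 (Nfkbiz) to 1.29 (Nfkb1) on the log2 scale, where 15.6% of all tested genes were called higher. All 9 were lower in the quiescent-like cluster, by −1.44 (Tnip1) to −3.04 (Nfkbia), where 14.7% of genes were called lower. For each of the 9 genes the fitted difference was larger in size in the quiescent-like than in the inflammatory-like cluster.

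In cluster 6, 8 of the 9 genes were higher, beside 14.6% of all genes. Nfkbia reached 2241, 2489 and 1936 CPM there, and its log2 difference from the other clusters was 1.35 ± 0.17 (SE; edgeR adjusted p = 8.72e-07). Nfkbie differed by 1.34 ± 0.14 and Nfkb2 by 1.26 ± 0.10. Nfkbiz was the exception, at 0.22 ± 0.14 (edgeR adjusted p = 0.271). Cluster 6 carried no state name, and 7 of its 8 calls held in every alternative, Rel being the other. Its 12 inflammatory markers stood on average 1.07 above the other macrophage clusters on the log2 scale. The same mean was 1.10 in the inflammatory-like cluster.

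Cluster 3, led by Rims2 and Mmp2, also had 8 genes higher, beside 8.06% of all genes. Nfkbie differed by 1.18 ± 0.14, Nfkb1 by 1.05 ± 0.12 and Rel by 1.03 ± 0.09 on the log2 scale. Nfkbiz was again not called, at 0.29 ± 0.15 (edgeR adjusted p = 0.205). The calls of Nfkb1, Nfkb2, Nfkbie and Tnfaip3 held in every alternative. Without mouse 2 the calls of Nfkbia and Tnip1 were lost (adjusted p = 0.375 and 0.0883), and without mouse 3 those of Nfkbia and Relb (0.197 and 0.152).

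In the 3 clusters named LYVE-1 resident-like, 6 to 9 of the 9 genes were higher. Cluster 9 took that name from 10 of 12 markers, although none of them was among its 10 leading genes, which began with Retnla and Lyz1. Cluster 2 had 7 of 9 higher (11.6% of all genes), cluster 5 had 6 (18.3%) and cluster 9 had 9 (14.3%). Tnfaip3 was called in each of them, at 0.78 ± 0.12, 0.58 ± 0.12 and 0.64 ± 0.13 on the log2 scale, and was the one gene whose calls held in every alternative in all 3. Set against the other clusters without the quiescent-like one, 4, 3 and 4 genes were called in clusters 2, 5 and 9. The counts were 2, 5 and 4 without mouse 2, and 3 in each of the 3 clusters without mouse 3. Genes of the immediate-early, dissociation and heat-shock list moved with these clusters, with 16, 23 and 10 of 26 higher. Their part in the result was not tested. The median cell of clusters 2 and 9 held 21588 and 27360.5 UMIs, more than the 8917 of the inflammatory-like cluster, and cluster 9 held 13 cells of mouse 1.

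In the hypoxia-like cluster, 4 of the 9 genes were higher, beside 6.62% of all genes. Tnip1 was higher by 0.76 ± 0.12 (SE; edgeR adjusted p = 1.82e-05) and Nfkbie by 0.70 ± 0.15, with smaller differences for Relb (0.43) and Nfkb2 (0.36). Tnfaip3 stood at −0.25 ± 0.14 (edgeR adjusted p = 0.300), and at −0.48 once the quiescent-like cluster was left out of the others (adjusted p = 0.0319). Its level of 81.8, 84.6 and 93.2 CPM lay below the 174, 209 and 164 CPM of the inflammatory-like cluster. None of these calls held in every alternative, and 2 of them were left when mouse 2 was dropped and 1 (Tnip1) when mouse 3 was, with Nfkbie at 0.56 (adjusted p = 0.282).

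Cluster 1, led by Gdf15 and Ccr6, held genes that were lower and 1 that was higher. Tnip1 was lower by −1.20 ± 0.15 (11.9, 31.4 and 15.4 CPM; edgeR adjusted p = 1.17e-07), Nfkb2 by −1.01 ± 0.13 (23.8, 20.8 and 25.4 CPM; adjusted p = 2.42e-07), Nfkb1 by −0.88 ± 0.15 and Relb by −0.57 ± 0.14, beside 4.17% of all genes lower. Tnfaip3 was higher there by 0.50 ± 0.13 (137, 193 and 112 CPM; adjusted p = 0.00770), beside 7.12% of all genes higher. That call was lost without mouse 2 (0.33, adjusted p = 0.282), without the mouse block and without the quiescent-like cluster among the others (0.28, adjusted p = 0.151). Nfkbia, at 1035, 1308 and 554 CPM, differed by −0.08 ± 0.19 (adjusted p = 0.862). The 4 calls of lower genes were 3 without mouse 2 and 2 without mouse 3, and 1 without the mouse block. In this cluster 20 of 26 stress genes were higher, and their part in the result was not tested.

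The remaining clusters were level or low. In the larger cycling-like cluster (cluster 4), 0 of 9 genes were called, with a median of 0.11 against 0.03 over all genes, while 15.3% of all genes were called higher and 8.28% lower. At an unadjusted p below 0.05 the count there was also 0, and so it was with DESeq2, while 2 genes were called higher without mouse 1. In the smaller cycling-like cluster (cluster 12), led by the replication genes Rrm2 and Ung, 8 of 9 were lower, by −0.52 (Tnip1) to −0.77 (Nfkb1), beside 11% of all genes, and Tnfaip3 was the one call that held in every alternative. Dropping mouse 2 left 3 of these calls. Without mouse 3 the calls of Relb, Nfkbia, Nfkbie and Tnip1 were lost, and the 5 genes then called lower included a gene not called with all 3 mice. Cluster 13 had 4 lower, beside 1.32% of all genes, of which Nfkbie was farthest at −1.86 ± 0.31 (edgeR adjusted p = 0.000365), but none were called without mouse 3, where Nfkbie was at −1.65 (adjusted p = 0.227), and 7 without mouse 1. Cluster 11 had 4 lower, beside 3.74%, and its median cell held 1926 UMIs. Dropping mouse 1, or mouse 3, left 2 calls. No call in clusters 11 and 13 held in every alternative.

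The interferon-like cluster had 8 cells in mouse 1 and was not fitted. Nfkb1 had 421, 438 and 246 CPM there and Nfkbia 1496, 1548 and 921 CPM. Both lay far above the quiescent-like values in each mouse.

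A gradient across the macrophage clusters was drawn from the 12 inflammatory markers. These markers also served to name the inflammatory-like cluster, and several are known NF-kB targets. The gradient is therefore no independent check, and its p-values do not measure a rise independent of how the score was formed. Within each mouse, 9266 macrophages with at least 2000 UMIs were divided into 5 quintiles of the markers' mean level. The quintiles are ranges and not cell types, as 53.0% of the cells lay within 0.1 of a limit, and 401 shallower cells were left out. The quiescent-like cluster made up 50.4%, 48.2% and 24.6% of the lowest quintile in mice 1, 2 and 3. The inflammatory-like cluster made up 31.1%, 34.9% and 29.96% of the highest.

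All 9 genes rose with the score (edgeR, slope per quintile with the mouse as a block), where 21% of 11312 tested genes rose and 18.8% fell. The median slope was 0.55 over the 9 genes and −0.01 over all genes on the log2 scale. The steepest were Nfkbia at 0.67 ± 0.12 (SE; adjusted p = 0.00118) and Tnfaip3 at 0.61 ± 0.10 (adjusted p = 0.000508). Nfkb1 and Rel followed, each with a slope of 0.58 ± 0.08. Relb was the shallowest at 0.40 ± 0.04 (adjusted p = 2.19e-05). Between these lay Nfkbie at 0.55 ± 0.10, Nfkbiz at 0.51 ± 0.10, Nfkb2 at 0.47 ± 0.04 and Tnip1 at 0.44 ± 0.06.

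From the lowest to the highest quintile, Nfkbia averaged 305 ± 160.5, 964 ± 202, 1386 ± 246, 1653 ± 319.8 and 2079 ± 412 CPM (SD, n = 3). Tnfaip3 averaged 31.3 ± 14.6, 110.0 ± 10.2, 144 ± 16.4, 184 ± 26.3 and 211 ± 29.6 CPM over the same quintiles. Relb averaged 30.6 ± 5.01, 57.1 ± 14.6, 66.3 ± 16.4, 77.7 ± 14.3 and 91.3 ± 14.2 CPM. The course was graded, as 12 of 12 steps within mice rose for 7 genes and 11 of 12 for Tnfaip3 and Tnip1. The share of all tested genes with as many rising steps is not given here. The course was also uneven, since the first step was 0.82 to 1.81 on the log2 scale across the 9 genes and the last was 0.15 to 0.34. The score itself rose most in its first step, with means of 0.154 and 0.702 in the lowest and second quintile of mouse 1, 0.256 and 0.850 in mouse 2, and 0.344 and 0.774 in mouse 3. The highest quintile was 2.99-fold (Relb) to 6.81-fold (Nfkbia) above the lowest as a ratio of means.

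**Figure D3:**
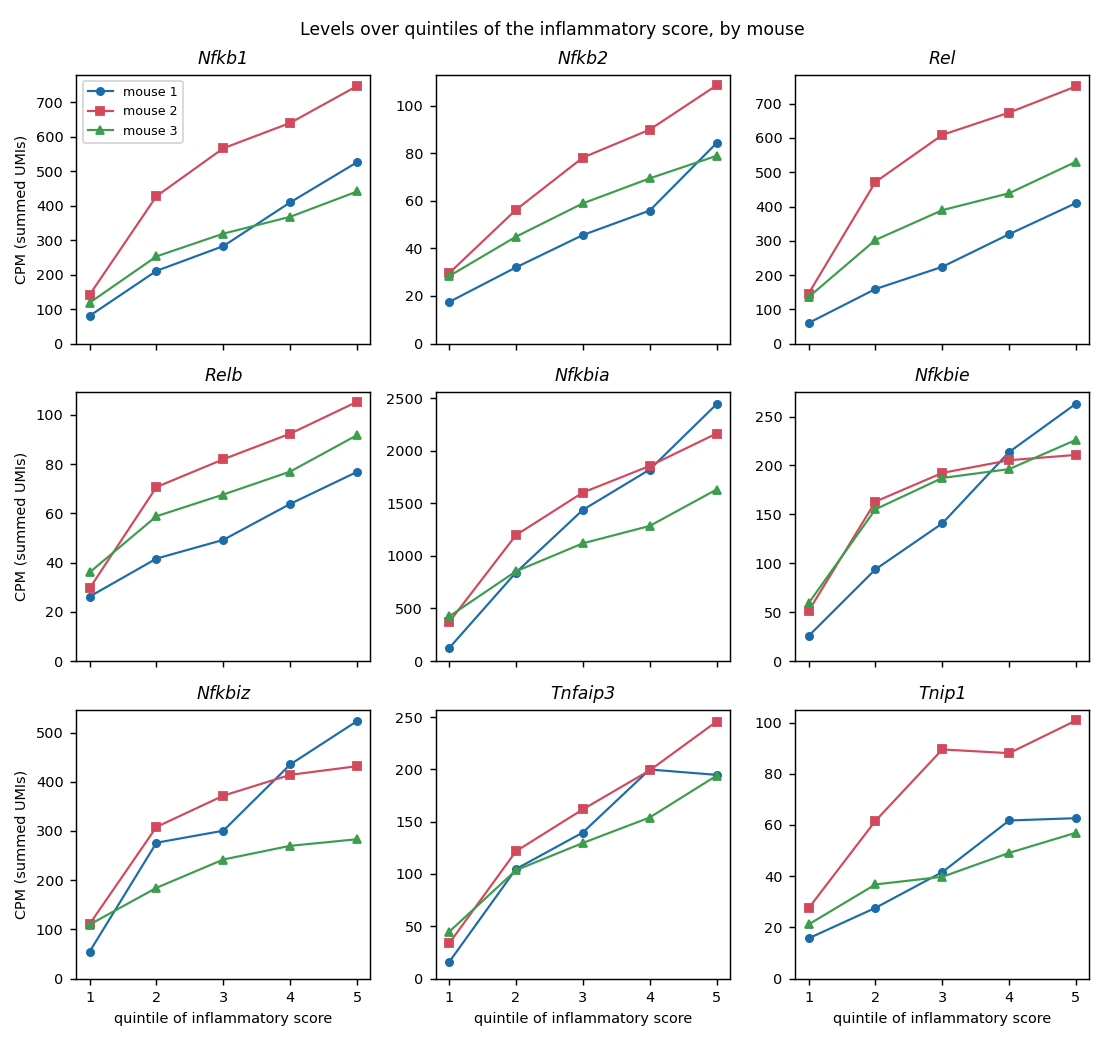
Level in CPM (linear axes from 0) of each gene in the 5 quintiles of the inflammatory score, low to high, with 1 line per mouse. As a ratio of means, every gene climbs most between the first and second quintile, where the score also has its largest step; Nfkbia goes through means of 305, 964, 1386, 1653 and 2079.

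Co-expression is given as a description. Over the 39 sums per mouse and cluster, centred within mouse, all 36 pairs of genes correlated positively, with Pearson's r of 0.645 (Nfkbiz and Tnip1) to 0.956 (Nfkb1 and Rel) and a median of 0.880. The sums of a mouse share a library, and the quiescent-like cluster pulls on all pairs. Without it, the range was 0.487 to 0.934 and the median 0.829. Nfkb2 and Relb, the non-canonical pair, were each other's nearest gene (r = 0.933) among all those fitted, here with the genes used to form the clusters. Without the quiescent-like cluster, however, Itga5 was nearer to Nfkb2 (0.927) than Relb was (0.921). Nfkbia and Tnfaip3, 2 feedback genes, reached 0.934.

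Among single cells the correlations were weaker. As sequenced, they ran from 0.0786 (Tnfaip3 and Tnip1) to 0.518 (Nfkb1 and Rel), as means of the 3 mice, with a median of 0.254. With every cell thinned to 2000 UMIs, they ran from 0.00662 (Nfkb2 and Nfkbiz) to 0.254 (Rel and Nfkbia), with a median of 0.0945. Depth varies between cells as sequenced, and sparse counts hold thinned values down. Within the inflammatory-like cluster r ran, as sequenced, from −0.0692 to 0.271 (median 0.0479), and within the quiescent-like cluster from −0.0925 to 0.213 (median 0.0511), both below the median of 0.254 over all macrophages.

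**Figure D4:**
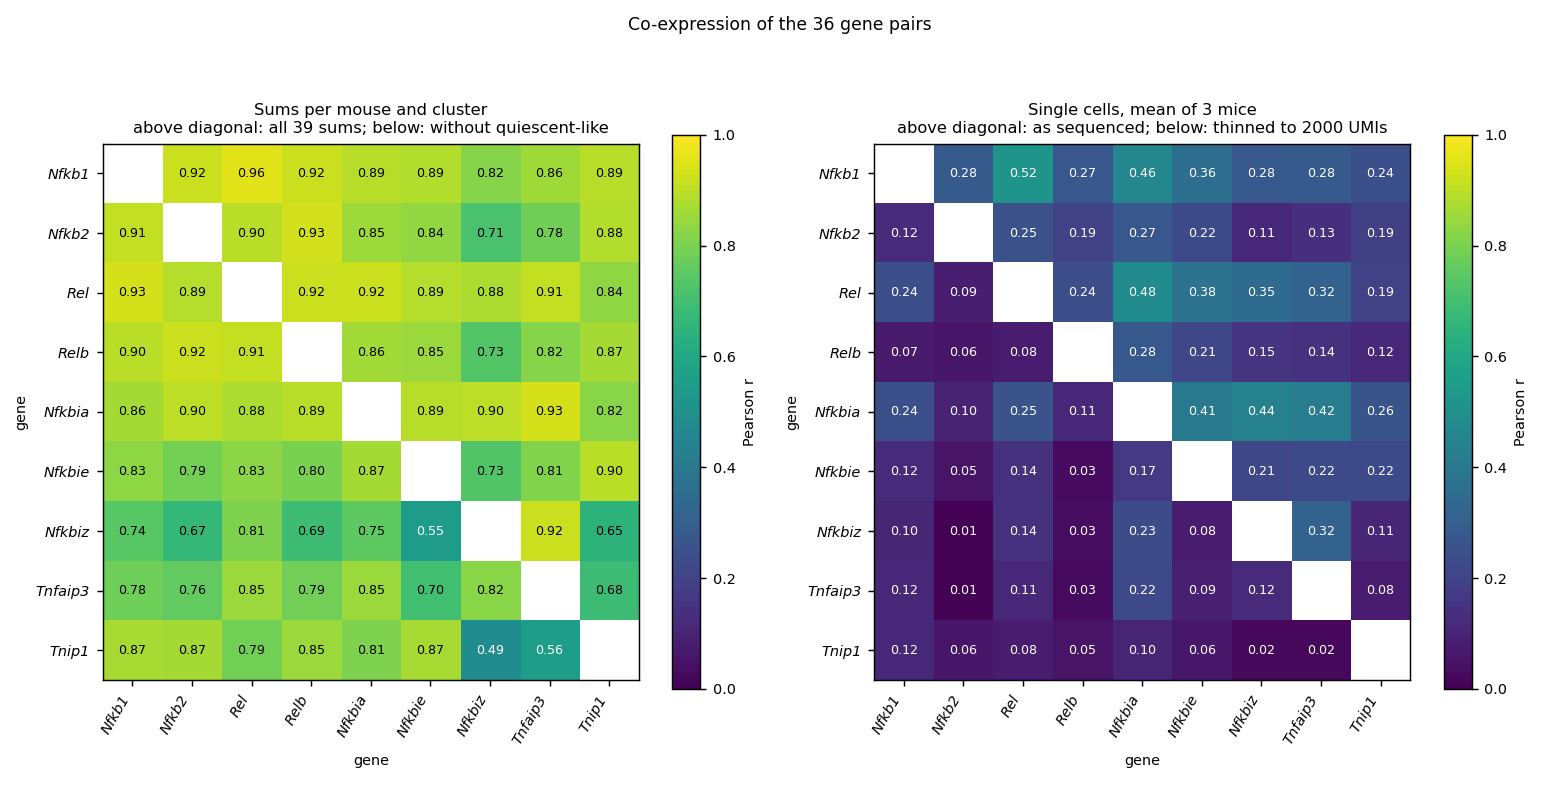
Pearson's r for the 36 pairs of genes: over sums per mouse and cluster (left; above the diagonal all 39 sums, below it without the quiescent-like cluster) and over single cells (right; above the diagonal as sequenced, below it thinned to 2000 UMIs). The sums range from 0.645 to 0.956 above the diagonal, and the thinned cells from 0.00662 to 0.254.

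The genes most like the mean of the 9 over the 39 sums were Zc3h12a (r = 0.966), Ehd1 (0.963), Dot1l (0.960) and Gadd45b (0.957), followed by Sdc4, Cd14, Maff, Slfn2, Pde4b and Dusp5 down to 0.954. Zc3h12a encodes Regnase-1, an RNase that degrades inflammatory transcripts, and its r was 0.9606 without the quiescent-like cluster, where Pde4b had 0.9615. Single genes had their own nearest neighbours, among them Zc3h12a for Nfkbia (0.975) and Tnfaip3 (0.944), Rilpl2 for Rel (0.970), Sdc4 for Nfkb1 (0.962), Cdkn1a for Nfkbie (0.939), Ifrd1 for Nfkbiz (0.935) and Ehd1 for Tnip1 (0.944). The place of Ifrd1 rests on the quiescent-like cluster, since without it Ifrd1 had 0.814 and Rab20 0.822. Dot1l, Sdc4, Cd14, Maff, Dusp5, Itga5, Cdkn1a and Ifrd1 had been used to form the clusters.

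Other genes of the pathway were called in both directions. Of 50 genes on the list, 49 were tested, and 21 were higher and 7 lower in inflammatory-like than in quiescent-like macrophages, with a median log2 difference of 0.31. Among all genes tested 18% were higher and 23.9% lower, with a median of −0.09, so the lower calls on the list were a smaller share than among all genes. The higher ones included further brakes and adaptors. Tnip3, a relative of Tnip1 that also binds A20, had 441 ± 186 CPM in inflammatory-like and 4.21 ± 2.83 CPM in quiescent-like macrophages (SD, n = 3), a log2 difference of 6.83 ± 0.46 (SE; edgeR adjusted p = 5.64e-12). Traf1, an adaptor of tumour necrosis factor receptors, had 135 ± 45.4 and 4.59 ± 1.23 CPM in the same order (5.33 ± 0.33). Malt1, a paracaspase that cleaves A20, had 494 ± 225 and 35.7 ± 5.96 CPM (4.04 ± 0.25). Zc3h12a had 201 ± 3.39 and 19.2 ± 7.68 CPM (3.62 ± 0.20). The IkBβ gene Nfkbib (2.41), N4bp1 (2.31), Birc3 (2.18) and Traf3 (2.17) were higher as well.

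Among the lower genes, Tifab had 17.6 ± 3.49 CPM in inflammatory-like and 119.7 ± 5.06 CPM in quiescent-like macrophages (SD, n = 3), a log2 difference of −2.53 ± 0.15 (SE; edgeR adjusted p = 6.44e-19). It is a relative of Tifa, an adaptor that carries signals to TRAF6. Tifa itself had 22.5 ± 6.35 CPM in inflammatory-like and 73.6 ± 20.7 CPM in quiescent-like macrophages (−1.38 ± 0.17). Tifab also stood on the list of quiescent markers but was used neither to cluster nor to name. Tab1 (−1.57) and Pdlim2 (−1.40) were lower too, Pdlim2 not without mouse 3 (−0.67, adjusted p = 0.122).

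Of 34 tested genes known as NF-kB targets in macrophages, 30 were higher and 0 lower at the inflammatory end, with a median log2 difference of 2.95, beside 18% higher, 23.9% lower and a median of −0.09 over all genes. The neutrophil-attracting chemokine Cxcl2 had 4576 ± 1909 CPM in inflammatory-like and 143 ± 21.4 CPM in quiescent-like macrophages (SD, n = 3; log2 difference 5.12 ± 0.42, SE). Cxcl1, of the same family, had 1137 ± 166 and 21.5 ± 13.1 CPM in the same order (5.89 ± 0.58). Several cytokine genes were almost absent at the quiescent end, where Il12b had 2 UMIs, Ccl22 1 and Il6 1, against 3165, 537 and 74 UMIs at the inflammatory end. No fold is given for these.

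Immediate-early and heat-shock genes, which tissue digestion can induce, were called in both directions. Of 26, 13 were higher and 5 lower in inflammatory-like macrophages, beside 18% higher and 23.9% lower among all genes. Their summed level was 9849 to 12345 CPM in inflammatory-like and 9809 to 10905 CPM in quiescent-like macrophages. The heat-shock gene Hspa1a was lower by −3.53 ± 0.45, Jun by −2.74 ± 0.29 and Fos by −1.19 ± 0.25 on the log2 scale (SE), the last not without mouse 2 (−1.04, adjusted p = 0.0532). Socs3 (1.91 ± 0.24), Dusp1 (1.76 ± 0.24) and Fosb (1.72 ± 0.21) were higher. The part of these genes in the differences of the 9 was not tested.

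All 9 differences between the ends were called in each of the 20 alternative settings, of which the 2 at Leiden resolution 0.5 were the same fit. Their sizes depended on which cells made up the ends. They were 1.36 to 2.40 on the log2 scale with coarser clusters, where 34.4% of the quiescent end came from the cluster described above. With finer clusters they were 1.47 to 2.82 when the quiescent end was the cluster with the highest mean of the quiescent markers, and 2.40 to 4.30 when both ends were matched by cells. The p-values rest on 3 mice.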

How the data were processed

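Per the labels' protocols, libraries were made with a droplet 3′ kit of version 3, and per the submitters' processing notes the authors used Cell Ranger 3.0.2 and mm10; the annotation version is not given in the sources used here. The authors deposited raw UMI counts per gene and barcode, and no normalization is recorded in the file headers.

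Barcodes with under 500 genes or over 15% mitochondrial UMIs were left out (411, 362 and 451 in mice 1, 2 and 3). Scrublet called 11 cells (0.113%), too few to count as working, so removal of the highest scores at 0.8% per 1000 cells was an alternative. Cells were clustered (scanpy 1.11.5, Leiden resolution 1.0, 2000 variable genes, 30 components) without the 9 genes, the pathway, target and stress lists, ribosomal and mitochondrial genes. A cluster took a name from at least 4 markers found in at least 10% of its cells and at least 1.0 (log2) above the other macrophage clusters, limits chosen after the data were seen. Counts were summed per mouse and cluster and fitted with edgeR 4.0.16 (quasi-likelihood, TMM, filterByExpr, robust) under R 4.3.3, with the mouse as a block, since sums of a mouse come from 1 animal. P-values were adjusted by Benjamini-Hochberg over genes not used to cluster, and a gene was called below 0.05. The fit was tested on simulated data. Intervals cover counting error only. Gene symbols shared by more than 1 identifier numbered 35, and none is among the 9.

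Besides the 9 genes, the text names from each list the 8 largest higher and 4 largest lower genes with the same sign in 3 of 3 mice, or some of them, and the 10 genes most like the mean of the 9. Rela was singled out after their values were seen. The 9 genes and all lists were chosen with earlier results of these data known. Alternatives varied the scaling, filter, block, depth, clustering, doublet removal, cell filters and bins, left out each mouse, and used DESeq2 1.42.0.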

Additional observations from a re-analysis of the deposited data

Results flagged for a closer look

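Barcodes with at least 500 genes that the mitochondrial limit of 15% left out of every comparison still carried transcripts of the 9 genes. Their summed UMIs were 3384 in 318 such barcodes of mouse 1, 2264 in 222 of mouse 2 and 1026 in 213 of mouse 3. Leaving mitochondrial UMIs out of the total, the 9 genes summed to 3908, 4245 and 2941 CPM in these barcodes and to 2808, 3694 and 2588 CPM in the kept macrophages of mice 1, 2 and 3. The median such barcode held 3424, 2464 and 1848 UMIs. The reason for the higher level was not tested.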

How the results depend on the processing

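All 9 genes kept their direction and their call between the ends in 20 alternatives (2 of them the same fit), and along the score in 9. Of the calls of a gene in a cluster, each under each of 9 alternatives, 588 kept their side of the threshold, 141 lost it and 0 reversed; of list genes 611 kept it, 20 lost it and 2 reversed. Counts of all genes called between the ends moved from 3633 to 2107 with no replicate block, 1149 in cells thinned to 2000 UMIs, 2273 at Leiden resolution 1.5 and 2223 with clusters and tests on separate UMIs (ends matched by cells, added after seeing the data), and to 1861 to 3551 with each mouse left out. Along the score they moved from 4496 to 2325 with no replicate block and 1604 thinned, and to 2921 to 4203 with each mouse left out. The 52 pairs of gene and cluster called higher became 28, and the 29 called lower 14, with no replicate block; they were 34 to 56 and 18 to 30 with each mouse left out. Nr4a1 reversed to −0.15 at Leiden resolution 0.5, where the 2 ways of choosing the ends gave the same cells, so that both reversals are 1 fit. Thinning leaves fewer counts and leaving out a mouse fewer sums; the cause of the other moves was not tested. Clustering on separate UMIs gave no cluster named inflammatory-like, so that setting has values only with matched ends. Depth limits Tnip1, Nfkb2 and Relb most; after thinning, Nfkb2 had a UMI in 17.8% and Relb in 18.4% of inflammatory-like cells.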

Other observations

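The clusters outside the macrophages also held transcripts of the 9 genes. In the 62 tumour epithelium-like cells, Nfkb1 averaged 102 ± 43.8 CPM over the 3 mice (SD), with 69.7, 84.3 and 152 CPM in mice 1, 2 and 3. Nfkbia was at 0, 390.4 and 468 CPM in these cells, of which mouse 1 had 4. The 9 T cell-like cells, 5 from mouse 2 and 4 from mouse 3, had 639 and 448 CPM of Nfkb1.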
